A study of Mus musculus with 2 samples.

Results

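C-type lectin uptake receptors were followed across the cells of the mouse spleen that carry CD11c. The receptors were listed by name for their known function, at a time when earlier results of these data were known. Of the 10 listed genes, 9 were analysed here, out of 27032 genes in the tables: Clec4a4, Clec4a2, Clec10a, Mgl2, Cd209a, Cd209d, Clec12a, Ly75 and Mrc1. The other one is not analysed here. The study obtained single-cell transcriptomes (scRNA-Seq) of CD11c+ cells from the spleens of wild-type mice, in 2 samples of 1 condition, called replicates 1 and 2 here. The labels name no treatment, strain or age, and the number of mice per sample is not stated. The cells had been enriched on CD11c magnetic beads, which select for dendritic cells (DCs) and also retain other cells, and went through the BD Rhapsody capture, which counts each captured transcript once by its unique molecular identifier (UMI).

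C-type lectin receptors are membrane proteins with a carbohydrate-recognition fold by which DCs and macrophages bind glycans on microbes, dying cells and self glycoproteins. Many of them carry their ligand into endosomes, so that its peptides can be loaded onto MHC molecules, and antibodies to such receptors have been used to aim antigen at 1 DC type. In the mouse spleen, conventional type 1 DCs (cDC1s) are best known for cross-presentation to CD8+ T cells, type 2 DCs (cDC2s) for presentation to CD4+ T cells, and plasmacytoid DCs (pDCs) for type I interferon.

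After the filters on cells, 5653 of 6393 cells remained, 2928 in replicate 1 and 2725 in replicate 2, and the deposited tables held 46953398 and 43137746 UMIs. Each cell was put in a class from UMIs of a few defining genes that are not among the receptors. There were 2626 cDC2s, 1254 cDC1s, 311 mature DCs (Ccr7+ Fscn1+), 32 pDCs, 423 macrophages, 237 B cells, 200 T cells and 74 NK cells, whereas 496 cells fitted no class. Further markers were highest in their own class for 9 of 9 macrophage genes, 5 of 7 cDC1 genes, 5 of 6 mature DC genes, 5 of 6 pDC genes and 5 of 5 genes each of B, T and NK cells. The cDC2 class takes the remaining cells with Sirpa and H2-Aa UMIs. Of its 7 markers, 0 were highest in it and 7 were higher in it than in cDC1s and in macrophages. The pDC class rested on 13 and 19 cells, so its values are the least precise. UMIs were summed per class and sample, and levels are given as UMIs per 1000000 UMIs of the class (CPM), with the value of replicate 1 before that of replicate 2.

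The receptor genes lie on 4 chromosomes (GRCm38, GENCODE annotation), and all are protein-coding. Clec4a4 (ENSMUSG00000059639.2, chr6:122990367-123024105, plus strand), Clec4a2 (ENSMUSG00000030148.15, chr6:123106428-123143999, plus strand) and Clec12a (ENSMUSG00000053063.11, chr6:129342691-129365303, plus strand) lie on chromosome 6. Mgl2 (ENSMUSG00000040950.13, chr11:70130329-70137550, plus strand) and Clec10a (ENSMUSG00000000318.16, chr11:70156197-70170834, plus strand) are neighbours on chromosome 11. Cd209a (ENSMUSG00000031494.7, chr8:3743397-3748984, minus strand) and Cd209d (ENSMUSG00000031495.8, chr8:3871824-3878555, minus strand) are on chromosome 8. Mrc1 (ENSMUSG00000026712.3, chr2:14229392-14332057, plus strand) and Ly75 (ENSMUSG00000026980.15, chr2:60292103-60383303, minus strand) are on chromosome 2. Of the 75-base stretches in the exons of Clec4a4, 12.7% also occur in Clec4a2, and 3.24% of those of Clec4a2 occur in its relatives. Clec10a and Mgl2 share 4.44% and 6.56% of theirs with each other. Reads that lie wholly in such stretches cannot be told apart between these 4 genes and their relatives, and the share of such reads was not measured. The other 5 genes share none. Ly75 overlaps an antisense gene, Gm13571, and Clec4a2 a pseudogene, Gm44132, and no source says whether the counting used the strand.

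RefSeq promoter windows, from 250 bases before to 50 bases after the start that RefSeq gives a gene, were found for 7 of the 9 receptors (GRCm38.p6). Those of Clec12a and Clec4a2 lie inside the GENCODE genes given above, downstream of the GENCODE start. Those of 5 receptors that led in macrophages, pDCs or mature DCs are shown. The window of Clec4a2, which also led in macrophages, is not shown and holds the PU.1 letters 0 times. Bases in capitals mark the core letters bound by PU.1, a factor that macrophages and DCs share (GAGGAA, either strand), except for Ly75, where capitals mark CpG pairs.
Mrc1, chr2:14229164-14229463, plus strand: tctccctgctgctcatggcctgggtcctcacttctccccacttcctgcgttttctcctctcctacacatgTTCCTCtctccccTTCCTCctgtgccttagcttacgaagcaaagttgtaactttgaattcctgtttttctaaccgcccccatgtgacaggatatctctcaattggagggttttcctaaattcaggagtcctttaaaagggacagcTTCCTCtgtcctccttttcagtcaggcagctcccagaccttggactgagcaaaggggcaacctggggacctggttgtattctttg
Clec12a, chr6:129349994-129350293, plus strand: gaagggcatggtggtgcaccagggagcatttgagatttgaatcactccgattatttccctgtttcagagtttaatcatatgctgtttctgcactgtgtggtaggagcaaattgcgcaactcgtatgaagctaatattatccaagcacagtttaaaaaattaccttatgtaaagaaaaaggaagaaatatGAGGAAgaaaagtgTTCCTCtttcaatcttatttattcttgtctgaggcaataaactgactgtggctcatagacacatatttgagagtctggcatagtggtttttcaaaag
Cd209a, chr8:3748935-3749234, minus strand: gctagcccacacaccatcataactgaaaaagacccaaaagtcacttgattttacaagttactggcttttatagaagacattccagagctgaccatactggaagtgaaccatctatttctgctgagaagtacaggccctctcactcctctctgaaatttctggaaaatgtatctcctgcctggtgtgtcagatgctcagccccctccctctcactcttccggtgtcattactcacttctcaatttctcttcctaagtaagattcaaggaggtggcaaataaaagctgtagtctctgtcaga
Cd209d, chr8:3878450-3878749, minus strand: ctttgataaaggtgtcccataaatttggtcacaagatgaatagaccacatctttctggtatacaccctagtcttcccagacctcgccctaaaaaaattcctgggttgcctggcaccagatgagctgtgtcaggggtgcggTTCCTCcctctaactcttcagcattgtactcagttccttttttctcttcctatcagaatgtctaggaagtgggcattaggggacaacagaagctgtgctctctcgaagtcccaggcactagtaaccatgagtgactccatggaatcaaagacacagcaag
Ly75, chr2:60383224-60383523, minus strand: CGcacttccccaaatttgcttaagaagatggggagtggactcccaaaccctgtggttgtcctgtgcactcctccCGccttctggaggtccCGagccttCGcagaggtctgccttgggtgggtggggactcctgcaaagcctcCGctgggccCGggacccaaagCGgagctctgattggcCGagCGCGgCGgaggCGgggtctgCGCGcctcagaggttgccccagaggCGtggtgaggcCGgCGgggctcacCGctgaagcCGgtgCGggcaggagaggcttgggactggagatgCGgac
The PU.1 letters occurred 3 times in the window of Mrc1, 2 times in that of Clec12a, 1 time each in those of Mgl2 and Cd209d and 0 times in those of Clec4a2, Cd209a and Ly75, and 28.3% of all 32851 promoters hold them. The Ly75 window held 21 CpG pairs, and 24.8% of promoters hold at least as many, whereas the other 6 windows held 1 to 8 against a median of 7. These are matches of letters, not measured sites.

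Clec4a4, also called DCIR2, an inhibitory receptor that is used to aim antigen at splenic cDC2s, was highest in cDC2s, with 124.4 and 106.3 CPM. Mature DCs followed with 49.8 and 46.5 CPM, apart from the cDC2 values. In cDC1s it was at 2.41 and 4.65 CPM and in macrophages at 4.34 and 6.12 CPM. The cDC2s held 85.3% and 82.0% of all Clec4a4 UMIs of kept cells.

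Cd209a, a mouse relative of DC-SIGN that binds mannose and fucose glycans, was at 356.1 and 344.9 CPM in cDC2s and at 394.5 and 473.1 CPM in pDCs. Its pDC UMIs came from 5 of 13 cells in replicate 1, of which 1 cell held 38, and from 13 of 19 in replicate 2. In each of the other classes it stayed under 40 CPM in both samples, among them cDC1s with 21.2 and 27.2 CPM. Clec10a and Mgl2 encode the macrophage galactose-type lectins, of which that of Mgl2 binds terminal galactose and N-acetylgalactosamine. Mgl2 was at 24.3 and 36.0 CPM in cDC2s and at most 5.30 CPM in any sample of the other classes, a value of NK cells that rests on 2 UMIs, and 0 UMIs were found in pDCs and T cells. Clec10a was at 21.2 and 19.1 CPM in cDC2s, and its 2 values in pDCs, 53.3 and 10.8 CPM, lay on either side of these. The pDC values rested on 10 and 3 UMIs, from 3 cells in each sample, and replicate 2 lay at the floor of 3 UMIs.

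Clec4a2, or DCIR1, the closest relative of Clec4a4 in the list and also inhibitory, was highest in macrophages, with 318.4 and 361.3 CPM. The cDC2s came next with 113.3 and 120.5 CPM, then pDCs with 53.3 and 65.0 CPM and mature DCs with 24.6 and 24.5 CPM, and none of these ranges overlapped. Clec12a, an inhibitory receptor for uric acid crystals and dead cells, was also highest in macrophages, with 327.1 and 302.2 CPM. It was at 137.8 and 123.0 CPM in cDC1s and 122.6 and 126.4 CPM in pDCs, which overlapped, and at 64.7 and 58.2 CPM in cDC2s. Clec12a was thus the receptor that all 5 myeloid and DC classes held above 40 CPM in both samples, whereas B, T and NK cells lay between 10.99 and 22.5 CPM.

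Ly75, or DEC-205, an endocytic receptor of the mannose receptor family that feeds antigen to both MHC routes, was highest in mature DCs, with 223.2 and 309.9 CPM, followed by cDC1s with 141.3 and 128.3 CPM. It was at 15.0 and 12.1 CPM in cDC2s, below T cells (87.0 and 57.8 CPM), NK cells (23.9 and 71.3 CPM) and B cells (36.1 and 40.5 CPM). Mrc1, the mannose receptor, was at 1647.1 and 1648.0 CPM in macrophages and at most 16.1 CPM in any sample of the other 7 classes, 157-fold below on the means. Macrophages held 97.1% and 93.3% of all Mrc1 UMIs.

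Cd209d, or SIGNR3, another relative of DC-SIGN, was at 170.6 and 112.0 CPM in pDCs and at 3.64 and 5.46 CPM in cDC2s. This rested on 32 and 31 UMIs. In replicate 1 they came from 3 of 13 pDCs, of which 1 cell held 22, and in replicate 2 from 8 of 19 pDCs. Cells with at least 3 Siglech UMIs but no Ccr9 UMI, which fell in the cDC2 class (30 and 16 cells), held 54.7 and 22.2 CPM, and those in no class (7 and 10 cells) 23.8 and 168.5 CPM.

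**Figure D1:**
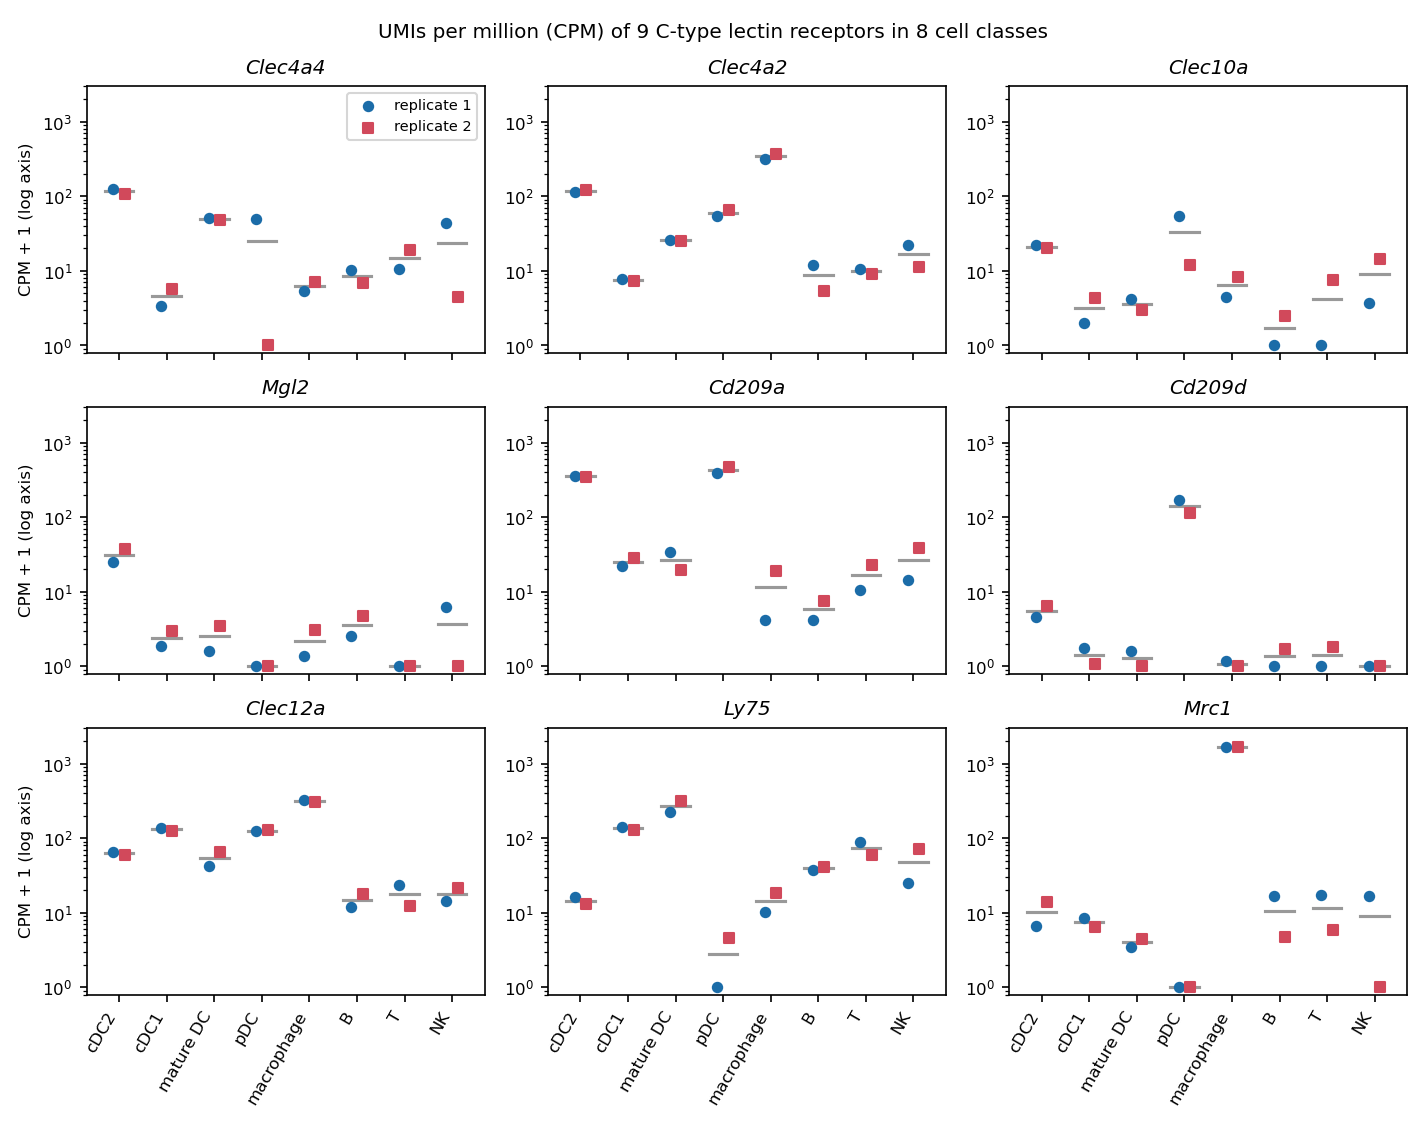
CPM plus 1 on a log axis for each receptor in 8 cell classes; circles are replicate 1, squares replicate 2 and grey bars their mean. Clec4a4 and Mgl2 peak in cDC2s, Mrc1, Clec4a2 and Clec12a in macrophages, Ly75 in mature DCs and Cd209d in pDCs.

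Which receptors separate the 2 conventional DC lineages was asked first. Compared with cDC1s, cDC2s held more of 6 of the 9 receptors and less of 2 in edgeR's quasi-likelihood test. The 6 include Mgl2, which came through the filter on low counts by its cDC2 sums, so its difference is a description. Of all 11452 genes tested, 18.4% were higher and 15.7% lower in cDC2s. The median log2 fold change of the 9 receptors, Mgl2 among them, was 3.16, beside 0.03 over all genes. That median is the value of Cd209d, which had 10 and 1 UMIs in cDC1s. Replicate 2 there, at 0.085 CPM, lay under the floor of 0.254 CPM for 3 UMIs. The log2 fold change was 4.88 ± 0.35 (SE, n = 2 sums a class) for Clec4a4 (adjusted p = 3.9e-09), 4.24 ± 0.43 for Mgl2, 3.99 ± 0.18 for Clec4a2, 3.70 ± 0.32 for Cd209a, 3.16 ± 0.61 for Cd209d and 3.06 ± 0.48 for Clec10a. Ly75 was lower in cDC2s by a log2 fold change of -3.47 ± 0.24 (adjusted p = 3.0e-09) and Clec12a by -1.24 ± 0.17 (adjusted p = 9.7e-06). Mrc1 was at 5.58 and 12.8 CPM in cDC2s and 7.38 and 5.50 CPM in cDC1s, which overlapped, and did not pass (adjusted p = 0.52). This comparison and the next 3 share the cDC2 sums, and the sums of a sample come from the same library.

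Macrophages and cDC2s differed in 8 receptors, in both directions. Of the 9, 3 were higher and 5 lower in macrophages, beside 25.4% and 25.8% of all genes, so that the share of higher ones was near that of all genes. The 5 include Mgl2, tested because its cDC2 sums are high, so its difference is a description. The median log2 fold change of the receptors, Mgl2 among them, was -1.91, and that of all genes -0.05. The former is the value of Clec10a. Mrc1 was higher by 7.62 ± 0.37 on the log2 scale (adjusted p = 2.4e-11), Clec12a by 2.48 ± 0.17 (adjusted p = 1.1e-09) and Clec4a2 by 1.66 ± 0.15 (adjusted p = 3.4e-08). The 2 DCIR genes moved apart, since Clec4a4 was lower by -4.41 ± 0.40 (adjusted p = 3.5e-08). Cd209a (-5.24 ± 0.40), Mgl2 (-4.90 ± 0.58) and Clec10a (-1.91 ± 0.51) were lower as well. For Cd209d the macrophage sums held 1 UMI against 140 in cDC2s, a ratio of 0.0279 (95% exact counting interval 0.0007 to 0.158). Ly75 was at 9.22 and 17.5 CPM in macrophages, around the cDC2 values (adjusted p = 0.96). The Clec10a call did not hold without the macrophage sum of replicate 1 (adjusted p = 0.14), without the cDC2 sum of replicate 1 (adjusted p = 0.060) or in DESeq2 (adjusted p = 0.074). The 5 erythroid genes, all with UMIs, summed to 3742 and 914 CPM in macrophages and 22.6 and 175.8 CPM in cDC2s, and their part in these differences was not tested.

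Mature DCs, which have taken up the migratory Ccr7+ state, held more Ly75 and less of 6 other receptors than cDC2s. Of all genes, 12.8% were higher and 12.6% lower, so that the share of higher receptors was near that of all genes. Mgl2, among the 6, was tested because its cDC2 sums are high, so its difference is a description. The median over the receptors, Mgl2 among them, was -2.16 and over all genes -0.08 on the log2 scale. Ly75 was higher by 4.39 ± 0.25 (adjusted p = 9.2e-10). Lower were Mgl2 (-4.06 ± 0.62), Cd209a (-3.70 ± 0.37), Clec10a (-2.90 ± 0.68), Clec4a2 (-2.16 ± 0.19) and Clec4a4 (-1.17 ± 0.31, adjusted p = 0.0096). Cd209d had 1 UMI in mature DCs, a ratio of 0.062 to cDC2s (interval 0.0016 to 0.351). Clec12a, at 41.0 and 64.5 CPM against 64.7 and 58.2 CPM, and Mrc1 did not pass (adjusted p = 0.74 and 0.13). By its rule, the class can hold mature cells of both lineages. With fewer sums the lower calls thinned to 3 without mature DC replicate 2, and the Clec4a4 call was lost there (adjusted p = 0.085), without mature DC replicate 1 (adjusted p = 0.062), without cDC2 replicate 1 (adjusted p = 0.10) and in DESeq2 (adjusted p = 0.34). The Cd209d call was lost without mature DC replicate 1 (adjusted p = 0.060), mature DC replicate 2 (adjusted p = 0.24) or cDC2 replicate 2 (adjusted p = 0.11) and with a narrower cDC2 rule (adjusted p = 0.19), and the Clec10a call without mature DC replicate 2 (adjusted p = 0.079).

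In pDCs, 3 receptors were lower than in cDC2s, beside 4.4% of all genes, and 2.65% of all genes were higher. Cd209d stood at 170.6 and 112.0 CPM against 3.64 and 5.46 CPM, but it came through the filter on low counts by these pDC sums, so its higher level there is a description and not a test result. Clec4a4 was lower by -2.71 ± 0.65 (adjusted p = 0.015), but its values were 48.0 and 0 CPM, from 9 and 0 UMIs. Clec4a2 was lower by -1.11 ± 0.27 (adjusted p = 0.016). Mgl2, with 0 UMIs in either pDC sum, was at least 4.61-fold lower than in cDC2s against a floor of 3 UMIs over the class. It came through the filter by its cDC2 sums, so this too is a description, though Mgl2 is counted among the 3. Cd209a (0.16 ± 0.33), Clec10a (0.35 ± 0.73) and Clec12a (0.87 ± 0.26, adjusted p = 0.055) did not pass, and neither did Ly75 or Mrc1, with 1 and 0 UMIs in pDCs. The median of the receptors, Cd209d and Mgl2 among them, was -1.11, or -0.47 with the genes at 0 UMIs set to their bound. The median of all genes was -0.20 under TMM scaling and -0.09 under relative log expression, with 304 genes higher and 504 lower under the former and 376 and 373 under the latter, and Clec12a passed under the latter (adjusted p = 0.034). Counting Cd209d, 4 receptors passed, but 1 did without pDC replicate 2, when it was Cd209d alone, and 2 did without pDC replicate 1 or cDC2 replicate 2. In DESeq2 Clec4a4 did not pass (adjusted p = 0.062).

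**Figure D2:**
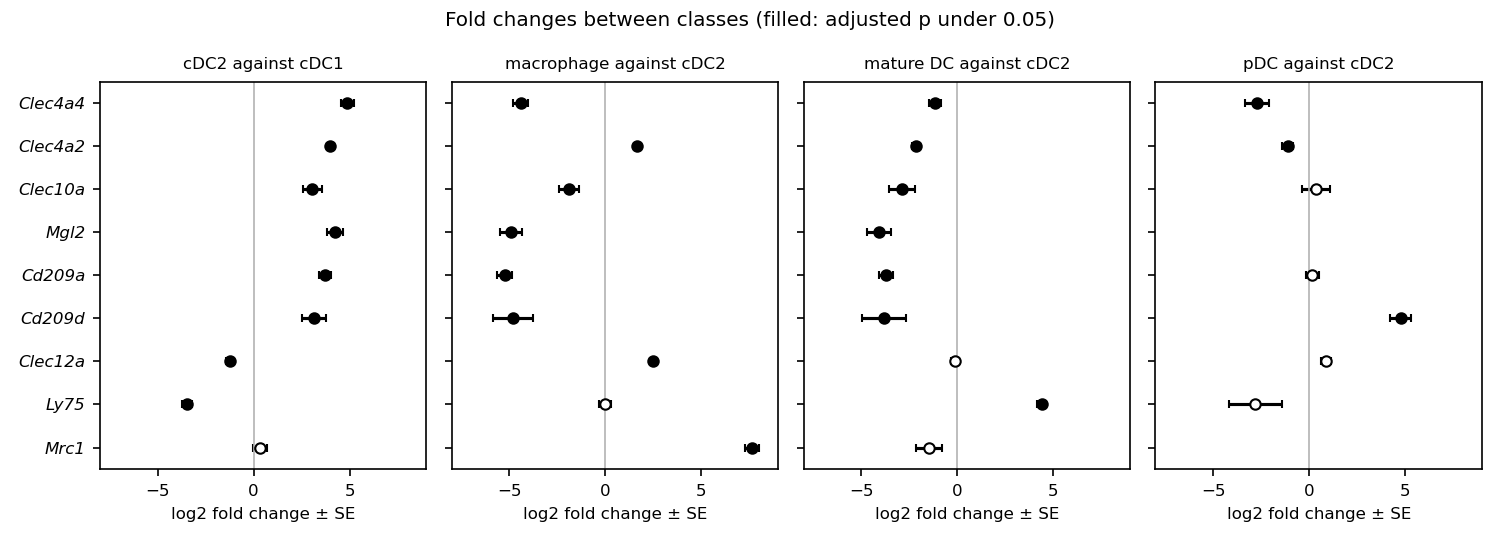
Log2 fold change ± SE of each receptor in 4 comparisons of classes by edgeR; filled points passed an adjusted p of 0.05, and genes with 0 UMIs in pDCs are left out. Clec4a4 and Clec4a2 lie on opposite sides of 0 for macrophages, and Ly75 is the receptor above 0 in mature DCs that passed. The filled Cd209d point for pDCs belongs to a gene that was tested because its pDC sums are high. The filled Mgl2 points belong to a gene that was tested because its cDC2 sums are high.

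Splenic cDC2s fall into a Notch-dependent set that carries the adhesion molecule ESAM and a set that does not. Among cDC2s, 319 and 298 cells held an Esam UMI, and 1081 and 928 did not. A cell without an Esam UMI can still express Esam, so Esam+ and Esam- name the UMI and not the 2 sets. How far the Esam- cells mix both sets, and what this does to the fold changes, was not tested. In Esam+ cDC2s, 0 receptors were higher and 4 were lower, beside 0.116% and 0.873% of 12030 genes. Mgl2 was at 0 and 0.267 CPM in Esam+ cDC2s and at 32.2 and 48.3 CPM in Esam- cDC2s. That is 1 UMI against 927, a ratio of 0.0032 (exact counting interval 8.2e-05 to 0.018). Mgl2 came through the filter on low counts by its Esam- sums, so its difference is a description, though it is counted among the 4. Clec10a was at 0.742 and 2.14 CPM against 27.9 and 24.9 CPM, a log2 fold change of -4.20 ± 0.65 (adjusted p = 0.00079). Clec12a was at 9.90 and 14.9 CPM against 82.5 and 73.0 CPM, a log2 fold change of -2.67 ± 0.21 (adjusted p = 2.8e-07). None of these ranges overlapped.

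Cd209a was lower but still frequent in Esam+ cDC2s, with 171.0 and 156.9 CPM against 416.3 and 409.4 CPM (log2 fold change -1.35 ± 0.28, adjusted p = 0.015). That call was lost when any 1 of the 4 sums was left out, with adjusted p from 0.091 to 0.21, and in DESeq2 (adjusted p = 0.78), and the Clec10a call without Esam+ cDC2 replicate 1 (adjusted p = 0.077). Clec4a4 was at 160.4 and 138.3 CPM in Esam+ and 112.7 and 95.3 CPM in Esam- cDC2s, which did not overlap, without passing (adjusted p = 0.84). Clec4a2, at 106.9 and 123.0 CPM against 115.4 and 119.6 CPM, and Ly75 overlapped. The median log2 fold change was -1.35 over the receptors, Mgl2 among them, and -0.01 over all genes. The former is the value of Cd209a. Ccr2, a receptor of monocytes and of some cDC2s, was at 6.19 and 6.94 CPM in Esam+ and 157.0 and 164.9 CPM in Esam- cDC2s, and the 7 monocyte genes summed to 547 and 621 CPM against 773 and 798 CPM. The part of these cells in the result was not tested.

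With the cDC2s split by a UMI of Dtx1, a Notch target gene, in place of Esam, 1 receptor was higher and 6 were lower, beside 2.78% and 5.88% of all genes. Clec4a4 was at 163.5 and 137.9 CPM in Dtx1+ cDC2s and 76.8 and 71.6 CPM in Dtx1- cDC2s, and now passed (log2 fold change 0.99 ± 0.27, adjusted p = 0.020). Clec12a (-3.13 ± 0.21), Cd209a (-1.97 ± 0.28), Mgl2, Clec10a, Cd209d and Mrc1 were lower. For Mgl2 this is a description, since it came through the filter on low counts by its Dtx1- sums. Clec4a2, with 121.5 and 130.9 CPM against 103.3 and 109.1 CPM, did not pass (adjusted p = 0.48).

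**Figure D3:**
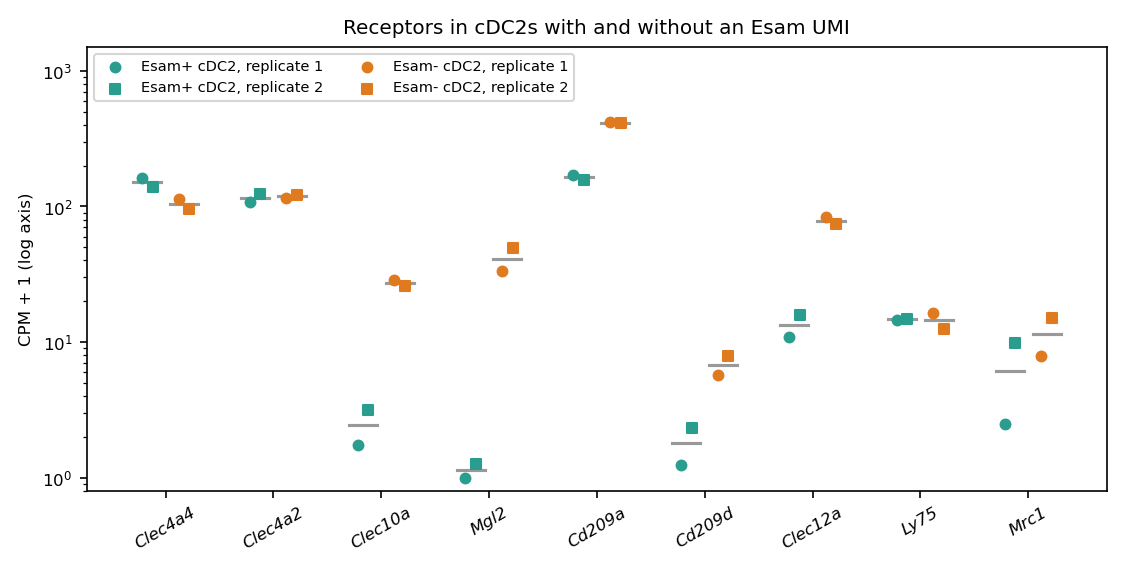
CPM plus 1 on a log axis of each receptor in cDC2s with (green) and without (orange) an Esam UMI; circles are replicate 1, squares replicate 2 and grey bars their mean. Mgl2, Clec10a and Clec12a lie far lower in Esam+ cDC2s, and Clec4a2 and Ly75 overlap.

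Langerin (Cd207) marks a set of splenic cDC1s. Of the 9 receptors, 0 were higher and 1 was lower in the 116 and 113 cDC1s with a Cd207 UMI, beside 0% and 0.208% of all genes. The lower one was Cd209a, at 1.22 and 3.83 CPM against 25.7 and 33.8 CPM in Cd207- cDC1s (log2 fold change -3.43 ± 0.58, adjusted p = 0.0095). This call was lost without Cd207+ cDC1 replicate 1 (adjusted p = 0.35) or replicate 2 (adjusted p = 0.060) and when Cd207+ cells needed at least 2 UMIs (adjusted p = 0.067). Ccr2 was at 14.2 and 13.02 CPM against 86.0 and 103.8 CPM in the same sets, and its part in the difference was not tested. Ly75 was at 134.4 and 117.1 CPM against 142.8 and 131.5 CPM, which overlapped. Its log2 fold change of -0.04 ± 0.22 did not pass (adjusted p = 1).

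The study took Siglec1 as the mark of the metallophilic macrophages of the marginal zone. The 9 macrophage markers summed to 26842.5 and 25317.5 CPM in macrophages with a Siglec1 UMI and 25842.2 and 24004.6 CPM in those without, which overlapped. The split is therefore named by the UMI and not by a macrophage type. Between the 112 and 56 macrophages with a Siglec1 UMI and the 181 and 74 without, 0 of the 9 receptors passed in edgeR and 0 in DESeq2, beside 0% of all genes higher and 0.00831% lower. At an unadjusted p under 0.05 there was 1, Ly75, with 6.07 and 6.38 CPM against 11.5 and 26.6 CPM. Mrc1 was at 1744.3 and 1769.6 CPM in Siglec1+ and 1577.6 and 1549.5 CPM in Siglec1- macrophages, a log2 fold change of 0.15 ± 0.28. The erythroid genes summed to 5146 and 1911 CPM in the former and 2739 and 106 CPM in the latter, and their part in these values was not tested.

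The share of cells with a UMI was compared after each cell had been thinned to 3000 UMIs, because cDC1s and macrophages were deeper (median 19520.5 and 20952.5 UMIs in cDC1s and 19313 and 18136.5 in macrophages against 11171 and 11065.5 in cDC2s). Mrc1 was then found in 97.3% (exact 95% binomial interval 94.7% to 98.8%) and 93.1% (87.3% to 96.8%) of macrophages, and, with all UMIs counted, in 291 of 293 and 125 of 130. Clec4a2 was found in 59.4% and 58.5% and Clec12a in 63.8% and 52.3% of macrophages. These 3 receptors were thus spread over most macrophages.

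Among cDC2s, Cd209a was found in 35.8% and 34.9% of thinned cells, Clec4a4 in 28.6% and 24.1% and Clec4a2 in 25.5% and 27.3%. Without thinning, Clec4a4 was found in 831 of 1400 and 698 of 1226 cDC2s, and Cd209a in 722 and 620. As a background, T cells, with medians of 6145 and 6490 UMIs before thinning, gave 4.88% and 2.52% for each of Clec4a4 and Cd209a. Ly75 was found in 34.8% and 37.2% of mature DCs and 32.0% and 25.6% of cDC1s, but also in 12.2% and 15.7% of T cells, against 3.16% and 2.70% of cDC2s.

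Clec10a and Mgl2 were sparse and uneven. Clec10a was found in 3.59% and 4.42% and Mgl2 in 2.59% and 3.27% of thinned cDC2s, beside 0 of 41 and 2 of 159 T cells for Clec10a and 0 of 41 and 0 of 159 for Mgl2. The 0 of 41 T cells in replicate 1 allow a share of up to 7.32%, above the cDC2 shares, so they set no background there, and 0 of 159 in replicate 2 allow up to 1.89%. Without thinning, all Mgl2 UMIs of cDC2s came from 57 and 65 cells, and 50 percent of them from 11 and 10 cells, with up to 33 and 37 UMIs in 1 cell. Of the Clec10a UMIs, 50 percent came from 22 and 19 cells, and of the Clec4a4 UMIs from 206 and 188 cells. Intervals and floors cover counting error only.

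Whether single cDC2s hold Clec4a4 together with the other lectins was examined last. In cells thinned to 3000 UMIs, 30.9% (exact interval 26.4% to 35.7%) and 29.9% (24.8% to 35.5%) of Clec4a4+ cDC2s held a UMI of Clec10a, Mgl2 or Cd209a, against 39.6% and 39.2% of Clec4a4- cDC2s. Cells with both made up 8.84% and 7.20% of cDC2s. Most of that overlap was Cd209a, found in 30.7% and 29.9% of Clec4a4+ cDC2s. Clec10a was found in 0.754% and 1.02% of Clec4a4+ against 4.73% and 5.50% of Clec4a4- cDC2s, Mgl2 in 0.251% and 0.340% against 3.52% and 4.20%, and Clec12a in 4.77% and 6.12% against 17.3% and 13.3%. Clec4a2 was at 28.4% and 29.3% against 24.4% and 26.7%. Cells of 1 sample are not replicates, so these shares are given as descriptions of 2 samples that lean the same way.

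The galactose-type lectins occurred together. Counting all UMIs, 45.6% and 50.8% of Mgl2+ cDC2s held Clec10a, against 5.58% and 5.08% of Mgl2- cDC2s. What the stretches of sequence that Clec10a and Mgl2 share add to this was not tested. Of the Mgl2+ cDC2s, 80.7% and 66.2% held Clec12a against 23.8% and 22.4%, 84.2% and 76.9% held Cd209a against 50.2% and 49.1%, and 21.1% and 29.2% held Mrc1 against 2.90% and 3.96%. Clec4a4 was found in 10.5% and 12.3% of them, against 61.4% and 59.4% of Mgl2- cDC2s. Of the Cd209d+ cDC2s, 22 of 24 and 30 of 31 also held Cd209a.

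**Figure D4:**
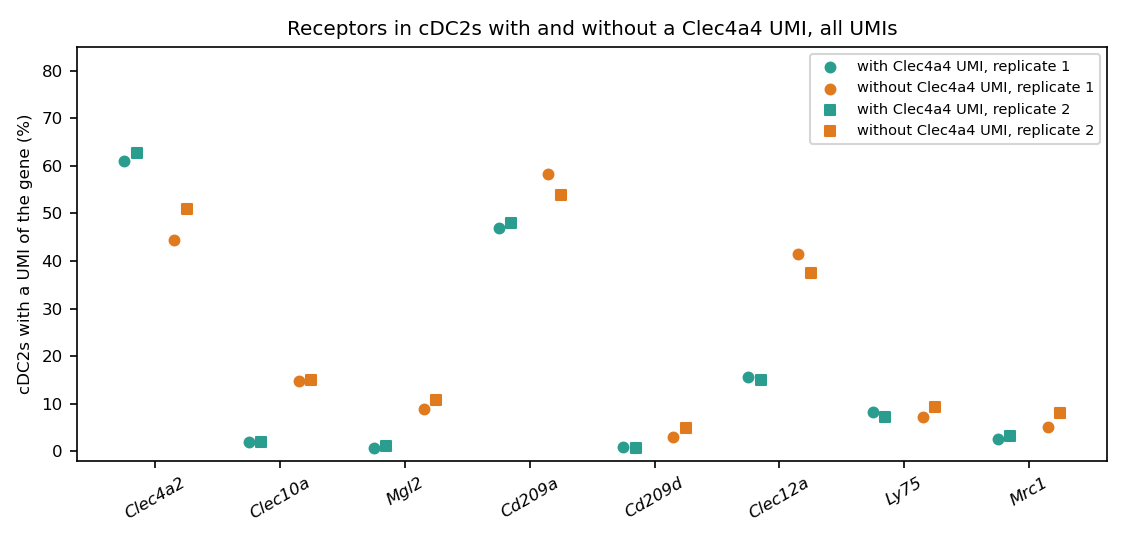
Percent of cDC2s that hold a UMI of each receptor, all UMIs counted, among cDC2s with (green) and without (orange) a Clec4a4 UMI; circles are replicate 1 and squares replicate 2. Clec10a, Mgl2 and Clec12a lie lower with Clec4a4 in both samples, at 2.05% and 1.86% against 14.8% and 15.0% for Clec10a.

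Among 28 other C-type lectin receptors, 17 could be tested between classes. In cDC2s against cDC1s, 11 were higher and 1 was lower, beside 18.4% and 15.7% of all genes, with a median log2 fold change of 2.32 against 0.03 over all genes. Clec4a1 (274.3 and 298.1 CPM in cDC2s, 12.1 and 15.99 CPM in cDC1s) and Clec4a3 (110.6 and 124.2 CPM against 6.86 and 6.85 CPM), which belong to the DCIR family, had the largest folds among those with at least 20 CPM in the higher class. Cd207, at 0.0607 and 0.0682 CPM in cDC2s and 22.6 and 28.4 CPM in cDC1s, was the lower one. It was tested because its cDC1 sums are high, and Cd209b, among the 11, because its cDC2 sums are high. Both are thus descriptions, though they enter the counts and the median. In macrophages against cDC2s, 7 were higher and 6 lower, beside 25.4% and 25.8% of all genes. Clec4n, or Dectin-2, a receptor for fungal mannan, stood at 614.6 and 692.5 CPM against 13.8 and 18.2 CPM, and Clec1b at 111.0 and 125.2 CPM against 4.67 and 3.21 CPM. Clec1b was tested because its macrophage sums are high, so its values are a description, and so is the place of Cd209b among the lower ones. Clec2i was the named lower one, with 19.9 and 16.3 CPM against 66.0 and 73.3 CPM.

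In mature DCs, 3 of the 17 were higher than in cDC2s and 7 lower, beside 12.8% and 12.6% of all genes, so that the share of higher ones was near that of all genes. Mrc2, a collagen receptor related to Mrc1, was at 36.6 and 21.0 CPM against 5.22 and 7.16 CPM and Clec2i at 174.7 and 164.4 CPM against 66.0 and 73.3 CPM. Mrc2 was tested because its mature DC sums are high, so its values are a description, and so is the place of Cd209b among the lower ones. Clec4b1, at 3.78 and 3.999 CPM against 22.6 and 22.7 CPM, and Clec4a3, at 30.9 and 29.99 CPM against 110.6 and 124.2 CPM, were lower. In pDCs, 2 were lower, Clec4a3 (15.99 and 7.22 CPM) and Clec4a1 (80.0 and 28.9 CPM), beside 4.4% of all genes. Cd209e, a further DC-SIGN relative, was at 15.99 and 39.7 CPM in pDCs, from 3 and 11 UMIs, against 1.88 and 1.84 CPM in cDC2s. It too was tested because its pDC sums are high, and replicate 1 lies at the floor of 3 UMIs, so these values are a description. Between Esam+ and Esam- cDC2s 0 of 19 were higher and 1 was lower, beside 0.116% and 0.873% of all genes. Between Cd207+ and Cd207- cDC1s the counts were 0 and 1, beside 0% and 0.208%, and between the macrophage sets 0 and 0, beside 0% and 0.00831%.

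Of 12 genes that carry signals of these receptors, 11 could be tested between classes. In cDC2s 7 were higher and 2 lower than in cDC1s, beside 18.4% and 15.7% of all genes, so that the share of lower ones was near that of all genes. Among the latter was Inpp5d, the phosphatase SHIP1, at 360.4 and 340.2 CPM against 513.7 and 466.1 CPM. In macrophages 4 were higher and 3 lower than in cDC2s, which is near the 25.4% and 25.8% of all genes. Malt1, a protease of the CARD9 complex, was at 43.8 and 43.6 CPM against 521.6 and 534.5 CPM (log2 fold change -3.47 ± 0.17, adjusted p = 1.4e-11). In mature DCs 0 were higher and 6 lower, beside 12.8% and 12.6% of all genes, and in pDCs 0 and 3, beside 2.65% and 4.4%.

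For each receptor, the genes whose level followed it most closely over the 16 sums of class and sample were taken by Pearson's r of log2(CPM + 10), among 10007 genes. The sums of a class share their cells' type and depth, so r is a description. Mrc1 was followed by Kcnj10 (r = 0.99), Slc1a3 (r = 0.99) and Ptgs1 (r = 0.99), and Cd209d by Smim5 (r = 0.996), Plvap (r = 0.98) and Atp2a1 (r = 0.98). Clec4a4 was followed by Gm9733 (r = 0.93), Spns3 (r = 0.92) and Ptger3 (r = 0.92), Clec4a2 by Plxnb2 (r = 0.96), Cfp (r = 0.95) and Cebpd (r = 0.95), and Clec12a by Asah1 (r = 0.95), Leprot (r = 0.95) and Cmtm3 (r = 0.95). Cd209a was followed by Ipo7 (r = 0.95), Gm16553 (r = 0.95) and Celf4 (r = 0.92), and Ly75 by Syne1 (r = 0.91), Tap2 (r = 0.89) and Ncoa7 (r = 0.89). The closest genes to Clec10a were Tg (r = 0.90), Gm14326 (r = 0.89) and 4732471J01Rik (r = 0.85), and to Mgl2 were Mmp12 (r = 0.86), Gm5086 (r = 0.83) and Ace (r = 0.80), the loosest likeness among the 9.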

How the data were processed

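The authors deposited UMI counts per cell and gene, made with the BD Rhapsody WTA Analysis Pipeline 1.12.1 on GRCm38, and no value was normalized. Submitters' notes also name R 4.2.3 and Seurat 4.3.0.1. Cells with at least 200 genes and within the mean ± 3 median absolute deviations (constant 1.4826) of UMIs, genes and mitochondrial percent of their sample were kept, which removed 740 of 6393 cells. Both samples shared 0 cell indices. The study labelled its cells with a multiplexing kit and separated them by sample tags, and whether both samples went through the same capture is not stated. No doublets were removed, and Scrublet in scanpy 1.11.5 called 60 cells (0.939%) in an alternative.

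Classes were assigned by the first rule met, in UMIs: macrophage (Vcam1 at least 20, C1qb 5), mature DC (Ccr7 2, Fscn1 1), cDC1 (Clec9a 2, Xcr1 1), pDC (Siglech 3, Ccr9 1), B (Cd79a 3), T (Cd3e 2), NK (Ncr1 1) and cDC2 (Sirpa 1, H2-Aa 5). These genes, and Esam, Cd207 and Siglec1 for the splits, were left out of the tests. Sums per class and sample (16 in the class fit, with 8 classes, and 11 groups in the split fit) were tested with edgeR 4.0.16 (TMM, filterByExpr, quasi-likelihood test) in R 4.3.3, and p-values were adjusted by Benjamini and Hochberg over all genes, with a threshold of 0.05. Dividing a log2 fold change by the square root of its F value gave its standard error. All 9 receptors passed the filter on low counts. Cd209d passed it through its pDC sums and Mgl2 through its cDC2 sums, where each is high. Medians over the receptors include both genes, so they are descriptions. In the split fits Mgl2 passed through its Esam- or Dtx1- sums. Among the other C-type lectins, Cd207, Clec1b, Mrc2, Cd209b and Cd209e likewise entered the class tests through their highest class. DESeq2 1.42.0 was an alternative. On simulated data for cDC2s against cDC1s (11452 genes), 100 of 100 genes changed 4-fold and 97 of 100 changed 2-fold were recovered, with 29 false calls. The false calls were a larger share of all calls than the threshold of 0.05. Changes were put only into genes above a floor of mean CPM, and all other genes had the same level in every class. Sparse receptors such as Mgl2 and Clec10a are thus not covered, and real classes differ in many more genes.

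Classes of a sample come from the same cells' library, so samples pair across classes. Their deviations correlated with r = 0.257 between cDC2s and cDC1s, 0.124 and 0.193 between cDC2s and macrophages or mature DCs, 0.0536 between cDC2s and pDCs, and 0.298, 0.253 and 0.134 within the split cDC2s, cDC1s and macrophages. Replicates differed beyond sampling noise (chi-square per degree of freedom 2.49 to 6.68). Nothing says that the samples came from separate mice or separate captures, so p-values measure the spread between 2 samples.

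The receptors and lists were chosen with earlier results of these data known. Named were all receptors and, of the other receptors and signalling genes, up to 2 in each direction with the largest fold change among those called, where both samples leaned one way and the higher class reached 20 CPM. For each receptor the 3 genes with the highest r were named. The alternatives comprised scaling, filters, doublets, the class rule, the splits, the thinning depth (1000 and 5000 UMIs) and leaving out each sum.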

Additional observations from a re-analysis of the deposited data

How the results depend on the processing

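Of 405 fold changes of receptors recomputed under other settings, 373 kept their direction and side of the threshold, 12 passed it newly, 6 no longer passed and 14 changed sign, all 14 of receptors that did not pass in the first place. From the Cd207 split only Cd209a and Ly75 enter these counts, and from the Siglec1 split only Mrc1. The other comparisons enter with all receptors. With the sample as a replicate block, which pairs the classes of a sample, the counts of receptors that passed were the same, with 8, 8, 7, 4, 4, 1 and 0, and the log2 fold change of Ly75 in Esam+ against Esam- cDC2s turned from 0.0035 to -0.0016. No other call changed under the block. Ly75 in macrophages against cDC2s changed sign to 0.053 under relative log expression scaling, 0.13 in DESeq2, 0.044 without the low-count filter, 0.41 with all deposited cells and 0.089 with the narrower cDC2 rule, and Clec12a in mature DCs to 0.11 with all deposited cells. In Esam+ against Esam- cDC2s, Ly75 changed sign to -0.049 without the filter, -0.24 with the narrower cDC2 rule, -0.84 with the Dtx1 split and -0.58 with the split at 2 UMIs, and Clec4a2 to 0.22 with the Dtx1 split and 0.062 with the split at 2 UMIs. Ly75 in Cd207+ against Cd207- cDC1s changed sign to 0.088 with all deposited cells.

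The number of genes called changed by over 1.5 times, mainly in the small comparisons. Without the low-count filter it was 1222 in pDCs against cDC2s, 338 in the Esam split, 167 in the Cd207 split, with 2 receptors, and 63 in the Siglec1 split. In DESeq2 it was 56 in the Cd207 split and 7 in the Siglec1 split. With the Dtx1 split 7 receptors and 1042 genes were called, and with the Cd207 split at 2 UMIs 0 receptors and 12 genes. In the Siglec1 split 14 genes were called with all deposited cells, and 0 each without Scrublet doublets, without cells that met over 1 class rule and with the narrower cDC2 rule. The cause was not tested.

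When 1 sum was left out, the lone sum was taken to vary like the other groups. Genes called ranged from 2294 to 2422 in cDC2s against cDC1s, from 1667 to 1942 in mature DCs, from 196 to 571 in pDCs, from 27 to 90 in the Esam split, from 4 to 21 in the Cd207 split and from 0 to 23 in the Siglec1 split, with fewer sums as part of the change. Receptors called ranged from 4 to 7 in mature DCs, 1 to 4 in pDCs, 2 to 3 in the Esam split and 0 to 1 in the Cd207 split. Of 192 fold changes, of the same receptors as above, 158 kept direction and side, 1 passed newly, 23 no longer passed and 10 changed sign. The log2 fold change ranged from -0.41 to 0.81 for Mrc1 in cDC2s against cDC1s, -0.41 to 0.49 for Ly75 in macrophages, -0.46 to 0.22 for Clec12a in mature DCs and -1.08 to 1.28 for Clec10a in pDCs. In the Esam split it ranged from -0.17 to 0.060 for Clec4a2 and -0.20 to 0.24 for Ly75, and in the Cd207 split from -0.16 to 0.044 for Ly75.

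Shares of cells with a UMI follow the depth by construction. At 1000 UMIs the mean share of the samples was 9.86% for Clec4a4, 20.98% for Cd209a, 1.90% for Clec10a, 1.88% for Mgl2 and 0.270% for Cd209d in cDC2s, 27.5% for Clec4a2, 26.3% for Clec12a and 78.3% for Mrc1 in macrophages, and 20.9% for Ly75 in mature DCs. At 5000 UMIs it was 37.7% for Clec4a4, 42.1% for Cd209a, 5.05% for Clec10a and 4.22% for Mgl2 in cDC2s, and 73.3% for Clec4a2 and 75.7% for Clec12a in macrophages. The share of cells with Clec10a, Mgl2 or Cd209a was lower in Clec4a4+ than in Clec4a4- cDC2s at every depth, by -5.63 percentage points at 1000 UMIs, -8.98 at 3000 and -12.87 at 5000.

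Limits are 2 samples of 1 condition, classes cut by a few UMIs so that a dropped UMI moves a cell, a pDC class of 32 cells, a cDC2 class that takes the remainder, and intronic reads that were counted. Between 1000 and 5000 UMIs the sparse receptors Mgl2, Clec10a and Cd209d were found in few cells, and a cell without a UMI of them cannot be called negative at this depth. Likewise, cells without a UMI of Esam, Dtx1, Cd207 or Siglec1 can still express these splitting genes.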
